A study of Mus musculus with 8 samples.

Results

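The 39 genes described here encode the oxygen-sensing pathway built around hypoxia-inducible factor (HIF), a set of its transcriptional targets, and the enzymes that carry glucose to pyruvate and lactate. They were chosen by name, with earlier results of these data known. All were matched by symbol to Ensembl gene IDs and found among the 16341 genes counted. RNA sequencing compared 4 libraries of 4T1-Sca1+ cells with 4 libraries of 4T1-Sca1- cells. 4T1 is a mouse mammary carcinoma line, grown in high-glucose medium per the study's methods, and both groups are fractions of it that were separated on magnetic columns by SCA1, a surface protein encoded by Ly6a. The labels name no treatment, oxygen condition or genetic change in either group, the sorted marker is the one difference they give, and each group is an enriched fraction rather than a clone. The labels give 2 accounts of the starting material, since the source is the parental line whereas the protocol mentions stained tumor and a gate negative for the leukocyte antigen CD45, and they do not say whether replicates were separate sorts, so p-values measure the spread between these libraries only. In bulk RNA, fewer cells expressing a gene and less of its RNA per cell cannot be told apart.

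HIF is a transcription factor whose alpha subunit (Hif1a or Epas1) is made continuously. When oxygen is present, the alpha subunit is hydroxylated by the prolyl hydroxylases Egln1, Egln2 and Egln3, bound by the ubiquitin ligase subunit Vhl and degraded. When oxygen falls the protein persists, pairs with Arnt and binds the core sequence ACGTG or GCGTG near its targets. Those targets include most glycolytic enzymes, the glucose importer Slc2a1, the pyruvate dehydrogenase kinases that hold pyruvate back from mitochondria, and genes for pH control, mitophagy, collagen hydroxylation and signaling. Because HIF activity is set by protein stability, its messenger RNA is not a measure of its activity. Many tumor lines run glycolysis at a high rate in oxygen as well.

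Total counts ran from 13561804 to 16968215 per library. Ly6a, which checks the sort, had a normalized count (count divided by the library's size factor) of 167 ± 20.2 in Sca1+ cells and 1.79 ± 1.73 in Sca1- cells (SD, n = 4 throughout). Of 11717 genes tested with edgeR's quasi-likelihood test, 3668 (31.3%) were higher and 3538 (30.2%) were lower in Sca1+ cells at an adjusted p under 0.05, together 61.5%. With offsets corrected for transcript GC content the same split was 3070 higher and 4709 lower, with the median of all genes at a log2 fold change of -0.065 in place of 0.0074. All 10 carcinoma epithelium markers were counted, with summed normalized counts of 59166 to 64779 in Sca1+ and 60809 to 65654 in Sca1- libraries, and of the 9 tested 2 were higher (Krt8 and Krt18) and 4 lower (Krt7, Krt14, Cdh1 and Cldn4). Of 18 leukocyte markers, 14 had at most 10 counts in any library or were not among the genes counted, Ptprc (CD45) had 10 counts over all Sca1+ and 2 over all Sca1- libraries, and the 4 tested (Cd68, Csf1r, Cd74 and S100a8) were higher in Sca1+ cells, so that the summed level was 413 to 477 against 228 to 271. The 10 fibroblast markers, of which Col3a1, Lum and Thy1 were not among the genes counted, summed to 635 to 671 against 395 to 468, most of it Pdgfra. Of the 3 tested, Col1a1 (log2 fold change 0.75) and Pdgfra (0.63) were higher in Sca1+ cells and Postn was not called. Of those not tested, Dcn had 49 counts over all Sca1+ and 4 over all Sca1- libraries. Pdgfrb had 27 and 1, Col1a2 19 and 18, and Fap 4 and 11. Endothelial markers summed to 34.7 to 43.9 against 43.4 to 66.2, and erythroid markers were at or near 0. The part of these markers in the results that follow was not tested.

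Of the 39 genes, 38 were tested and 29 (76.3%, beside 61.5% of all genes tested) differed between the groups, 14 higher and 15 lower in Sca1+ cells. The groups did not overlap for 28 of them (13 higher, 15 lower), beside 54.7% of all genes (26.8% higher, 27.9% lower). Most differences were under 2-fold, although the median absolute log2 fold change was 0.36, beside 0.24 over all genes tested. It was 0.48 for the glycolysis genes and 0.25 for the other hypoxia genes. Of the 38 genes, 4 reached 2-fold, namely Ldhb, Eno2 and Pdk2, which were higher, and Adm, which was lower. Over all tested genes, 6.1% were called at that size (5.22% higher and 0.879% lower). Glycolysis and the other hypoxia genes did not move as one block. Of 23 glycolysis genes, 20 (87%) were called, 11 (47.8%) higher and 9 (39.1%) lower, beside 61.5%, 31.3% and 30.2% of all genes. Their median log2 fold change was 0.011 (-0.053 with GC-corrected offsets, which shift all genes as given above). Of 16 other hypoxia genes, 15 were tested and 9 (60%) were called, near the 61.5% of all genes. Of the 15, 3 (20%) were higher and 6 (40%) lower. Their median was -0.11, beside 0.0074 over all genes (-0.097 beside -0.065 with GC-corrected offsets). The difference between the 2 sets was not tested. With the GC-corrected offsets 15 of the 38 genes were higher and 18 lower. The heat map of the 38 genes shows each library relative to the gene's mean.

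**Figure D1:**
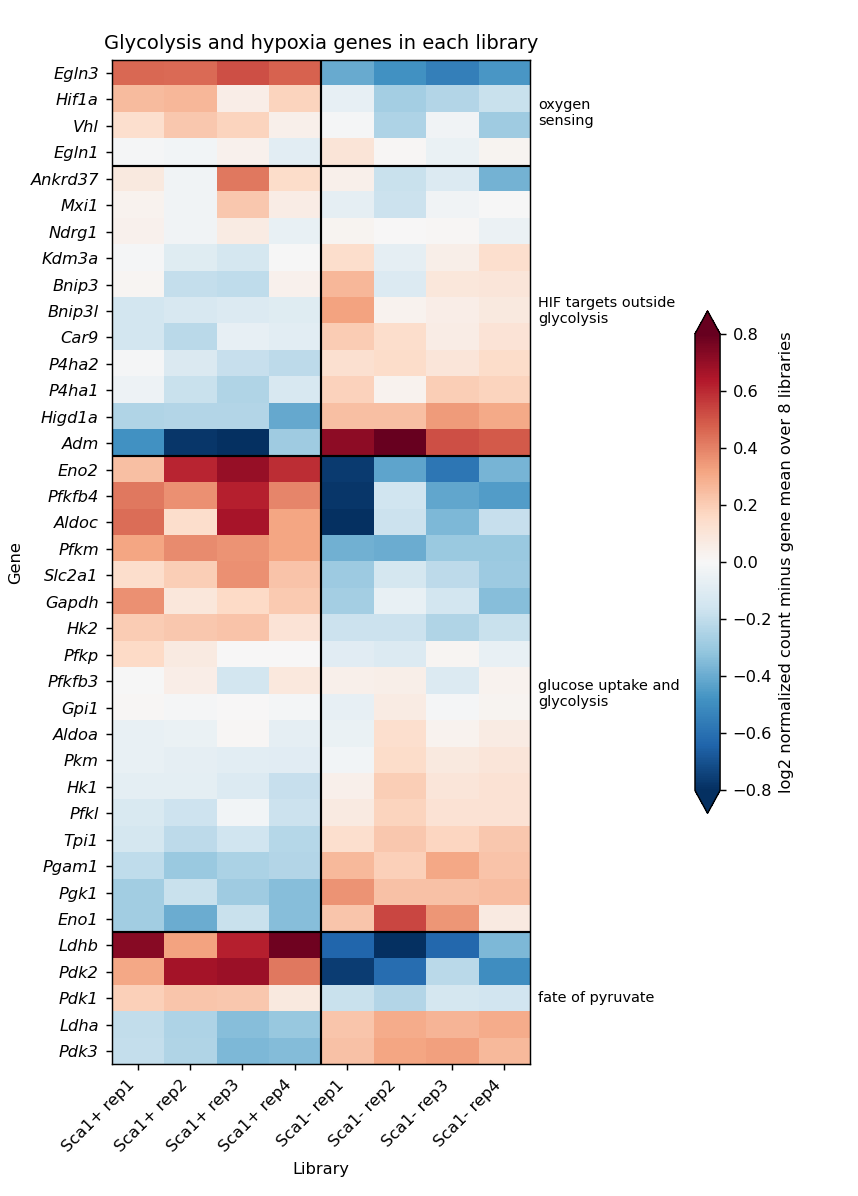
Each row is 1 of the 38 tested genes and each column 1 library, 4 Sca1+ on the left and 4 Sca1- on the right. Color gives the log2 normalized count minus the gene's mean over the 8 libraries, red for higher and blue for lower, with rows grouped by role. Within a role, rows run from the highest to the lowest log2 fold change. Glycolysis and the fate of pyruvate each hold rows red on the left (Eno2, Ldhb) and, further down, rows blue on the left (Pgk1, Ldha). The role of HIF targets outside glycolysis, which does not include Egln3, holds no gene called higher.

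The upstream sequences of 5 genes are shown because they carry the contrasts described in the next paragraphs. Ldhb and Adm had the highest and the lowest log2 fold change of the 39 genes, Ldha is the paralog of Ldhb that went the other way, Egln3 had the smallest adjusted p, and Aldoa was the most abundant gene with no call (Ldha and Egln3 were picked after their values were seen). Each is the 250 bases before a RefSeq start site in GRCm38.p6, printed 5′ to 3′ on the gene's strand, and capitals mark matches to the HIF core motifs ACGTG and GCGTG on either strand. The windows lie at chr6:142507958-142508207, minus strand for Ldhb, chr7:46845554-46845803, plus strand for Ldha, chr7:110627407-110627656, plus strand for Adm, chr12:54203875-54204124, minus strand for Egln3 and chr7:126799255-126799504, minus strand for Aldoa, where Ldha has 2 annotated starts and Aldoa 3.
Ldhb: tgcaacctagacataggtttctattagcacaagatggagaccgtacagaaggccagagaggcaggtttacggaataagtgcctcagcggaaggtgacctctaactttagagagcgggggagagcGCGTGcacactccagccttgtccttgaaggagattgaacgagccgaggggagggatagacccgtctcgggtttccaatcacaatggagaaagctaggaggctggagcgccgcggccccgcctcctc
Ldha: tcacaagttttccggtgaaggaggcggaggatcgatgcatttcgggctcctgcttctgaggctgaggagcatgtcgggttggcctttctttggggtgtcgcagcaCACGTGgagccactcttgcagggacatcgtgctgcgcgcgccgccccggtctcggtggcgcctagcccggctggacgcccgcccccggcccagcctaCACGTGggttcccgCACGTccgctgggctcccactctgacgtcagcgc
Adm: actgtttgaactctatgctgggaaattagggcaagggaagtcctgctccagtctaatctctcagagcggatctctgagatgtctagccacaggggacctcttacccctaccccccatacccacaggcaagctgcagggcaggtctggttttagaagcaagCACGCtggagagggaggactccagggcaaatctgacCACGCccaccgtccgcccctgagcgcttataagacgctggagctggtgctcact
Egln3: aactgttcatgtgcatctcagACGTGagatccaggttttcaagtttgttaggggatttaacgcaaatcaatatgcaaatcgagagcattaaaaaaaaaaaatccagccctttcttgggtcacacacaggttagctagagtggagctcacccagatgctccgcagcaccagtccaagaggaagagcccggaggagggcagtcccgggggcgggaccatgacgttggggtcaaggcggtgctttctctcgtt
Aldoa: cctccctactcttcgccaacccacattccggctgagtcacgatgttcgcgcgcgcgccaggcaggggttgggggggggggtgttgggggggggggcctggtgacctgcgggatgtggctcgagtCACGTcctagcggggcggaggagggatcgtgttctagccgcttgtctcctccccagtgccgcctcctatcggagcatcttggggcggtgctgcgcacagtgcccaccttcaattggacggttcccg

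The Ldha window held 5 matches beginning 145, 144, 48, 47 and 34 bases before the start site, as the palindrome CACGTG is read on both strands. Adm held 2, at 90 and 54 bases, and Ldhb, Aldoa and Egln3 held 1 each, at 126, 126 and 229 bases. The window of the second Ldha start held 1, and those of the other Aldoa starts held 0 and 1. The latter window overlaps the printed Aldoa window, and its match, at 202 bases, is the same site. In windows that also took the 50 bases after the start, 32 of the 36 genes with a RefSeq window (88.9%) had a match in at least 1 window. The same held for 69% of the 9167 tested genes with a window and 46.7% of all 27025 genes with a window. A match was present for 12 of 14 genes called higher, 13 of 14 called lower and 7 of 8 not called. Over all called genes the shares were 65.4% of those higher and 72.7% of those lower. A match was thus common among genes of either direction. Epas1, Bnip3l and Ndrg1 had no window in the table used, and Vhl, Gpi1, Tpi1 and Eno2 had a window with no match.

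Of the 4 oxygen-sensing genes tested, 3 (75%) were called higher in Sca1+ cells and none lower, beside 31.3% and 30.2% of all genes (edgeR, with 0 lower at an unadjusted p under 0.05 and 0 by DESeq2 or limma-voom, whereas Egln1 was lower with GC-corrected offsets, at -0.25). Egln3 (ENSMUSG00000035105; chromosome 12, 54178981 to 54203860, minus strand, GRCm38), a prolyl hydroxylase that is itself a HIF target and so part of a feedback loop, had 2652, 2635, 2752 and 2674 normalized counts in the Sca1+ libraries and 1457, 1378, 1320.2 and 1397 in the Sca1- libraries. The groups were far apart and tight within themselves. Its mean was 2678 ± 51.6 against 1388 ± 56.5 (SD), a 1.95-fold difference in the fit, whose scaling makes folds differ slightly from the ratio of printed means (log2 fold change 0.96, standard error 0.045, edgeR adjusted p = 8.16e-12). Hif1a (ENSMUSG00000021109; chromosome 12, 73901375 to 73947530, plus strand), the HIF alpha subunit found in most cells, had 3829, 3873, 3342 and 3644 in Sca1+ and 3077, 2662, 2741 and 2846 in Sca1- libraries. Every Sca1+ library was above every Sca1- library, although Sca1+ replicate 3 and Sca1- replicate 1 came close. The means were 3672 ± 241 against 2831 ± 180.2 (log2 fold change 0.39, standard error 0.056, edgeR adjusted p = 1.17e-05). Vhl, which marks hydroxylated HIF for degradation, was also higher, with 254 ± 12.8 against 209 ± 20.8 (log2 fold change 0.29, adjusted p = 0.00646). Egln1, the main hydroxylase in most cells, was not called (2081 ± 68.2 against 2139 ± 93.6, log2 fold change -0.028, adjusted p = 0.622, 95% interval of the log2 difference -0.13 to 0.070). Epas1, the second alpha subunit, was not tested, with 1 count in all Sca1+ and 2 in all Sca1- libraries, both at or under the floor of 3 counts. The HIF alpha transcripts counted in these cells were therefore nearly all Hif1a.

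Of 11 HIF targets outside glycolysis, none was called higher and 6 (54.5%) were lower, beside 31.3% and 30.2% of all genes. This holds for the 11 genes of this role only. Egln3, a HIF target that was higher, is counted with oxygen sensing, and the further HIF targets given below had 2 higher and 11 lower of 22 tested. At an unadjusted p under 0.05 the number higher was 1 (Mxi1), and it was 0 by DESeq2 and limma-voom. Adm (ENSMUSG00000030790; chromosome 7, 110627661 to 110629820, plus strand) encodes adrenomedullin, a secreted vasodilator peptide, and had 41.1, 33.5, 25.9 and 47.3 normalized counts in Sca1+ and 94.5, 113, 82.4 and 81.0 in Sca1- libraries. The highest Sca1+ library was well below the lowest Sca1- library. With means of 37.0 ± 9.25 against 92.7 ± 14.8 it stood at 40.5% of its Sca1- level (log2 fold change -1.30, standard error 0.17, edgeR adjusted p = 3.74e-06), on counts of at most 110 per library. Higd1a (ENSMUSG00000038412; chromosome 9, 121848563 to 121858362, minus strand), a small protein of the inner mitochondrial membrane, had 359, 362, 361 and 320.3 against 503, 502, 538 and 524. The groups did not overlap, and Sca1+ replicate 4 was below its 3 partners. Its means were 351 ± 20.2 against 517 ± 17.2 (log2 fold change -0.55, standard error 0.063, edgeR adjusted p = 9.13e-07). P4ha1 (ENSMUSG00000019916; chromosome 10, 59323296 to 59373304, plus strand), a catalytic subunit of collagen prolyl 4-hydroxylase, had 1553, 1410.2, 1351 and 1459 against 1818, 1627, 1833 and 1808. Here too the groups were separate, by a narrow gap between Sca1+ replicate 1 and Sca1- replicate 2. The means were 1443 ± 85.5 against 1772 ± 96.8 (log2 fold change -0.28, standard error 0.055, edgeR adjusted p = 0.000246).

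Car9 (ENSMUSG00000028463; chromosome 4, 43506966 to 43513729, plus strand), the cell-surface carbonic anhydrase used widely as a marker of hypoxic tumor tissue, had 823, 786, 869.8 and 858 normalized counts in Sca1+ and 1051, 1002, 949.5 and 980.5 in Sca1- libraries. All 4 Sca1+ libraries were lower than all Sca1- libraries. Its means of 834 ± 37.7 against 996 ± 42.5 placed it at 84.5% of the Sca1- level (log2 fold change -0.24, adjusted p = 0.000675, edgeR). P4ha2, the second collagen hydroxylase subunit (log2 fold change -0.25, adjusted p = 0.00147), and Bnip3l, a mitophagy receptor (log2 fold change -0.23, adjusted p = 0.00421), were lower by a similar amount. The remaining 5 targets were not called. Bnip3, the mitophagy receptor related to Bnip3l, had 262 ± 23.2 against 296 ± 30.9 (log2 fold change -0.16, adjusted p = 0.128), and Kdm3a, a histone demethylase, had 1045 ± 49.8 against 1141 ± 78.3 (log2 fold change -0.11, adjusted p = 0.0954). Ndrg1, a stress-responsive gene, was not called, with a log2 difference of 0.019 and a 95% interval of -0.076 to 0.11. Mxi1, a repressor that competes with Myc for Max (log2 fold change 0.15, adjusted p = 0.0619), and Ankrd37 (log2 fold change 0.32, adjusted p = 0.112) had values above 0 that did not pass the threshold, although Mxi1 was called higher in 6 of 19 alternative settings, among them the GC-corrected offsets (0.16) and the fit without Sca1+ replicate 2 (0.18). Ankrd37 shares 406 bases of exon with Lrp2bp and Ufsp2 on the opposite strand, and since the use of strand in counting was not given in the sources used here, its level and difference are uncertain to that extent.

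**Figure D2:**
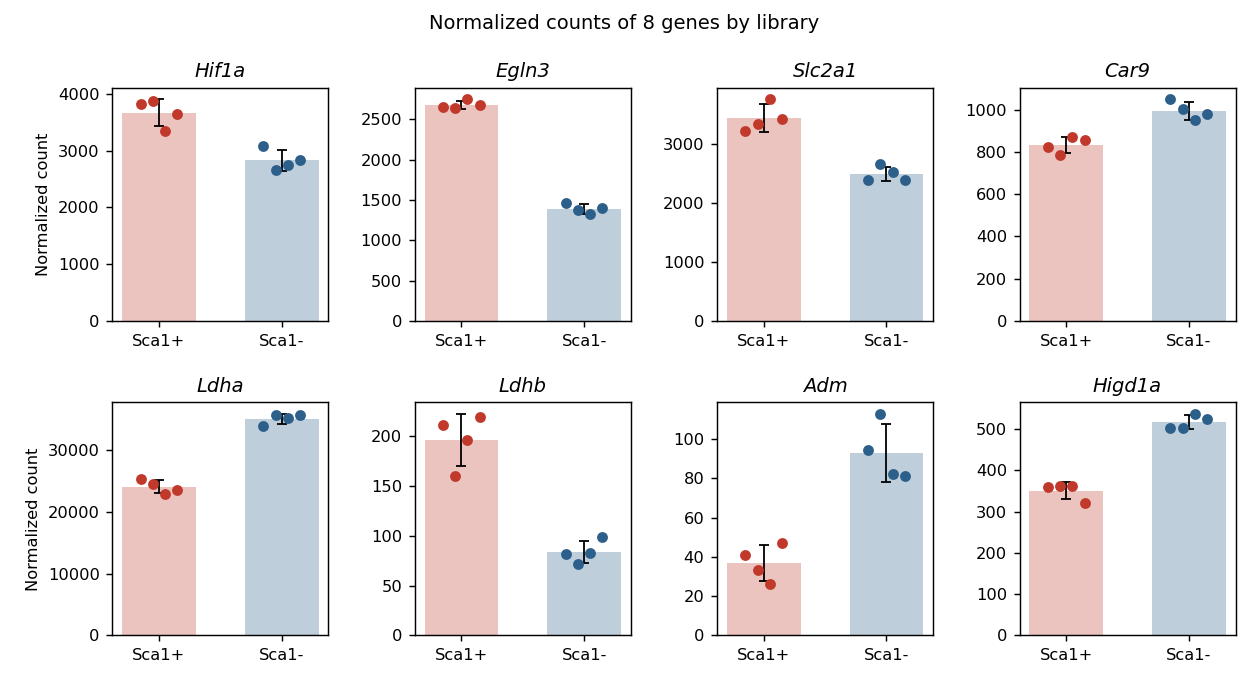
Normalized counts (vertical axes, each from 0) of 8 genes in Sca1+ (red) and Sca1- (blue) cells. Dots are libraries, bars are means and error bars the SD of 4 libraries. Hif1a, Egln3, Slc2a1 and Ldhb are higher and Car9, Ldha, Adm and Higd1a lower in Sca1+ cells, with no overlap of the dots in any panel.

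Within glucose uptake and glycolysis, 8 of 18 genes (44.4%) were higher and 7 (38.9%) lower, beside 31.3% and 30.2% of all genes tested, and paralogs for 1 step often differed in direction. Slc2a1 (ENSMUSG00000028645; chromosome 4, 119108711 to 119137983, plus strand), which encodes the glucose transporter GLUT1, had 3232, 3353, 3770.3 and 3437 normalized counts in Sca1+ and 2394, 2659, 2531 and 2397 in Sca1- libraries. Every Sca1+ library exceeded every Sca1- library. Its means were 3448 ± 231 against 2495 ± 127, a 1.39-fold difference (log2 fold change 0.48, standard error 0.052, edgeR adjusted p = 4.64e-07). Of the hexokinases, which trap glucose as its 6-phosphate, Hk2 was higher (4124 ± 149 against 3168 ± 71.5, log2 fold change 0.39, adjusted p = 4.75e-07) and Hk1 lower (3518 ± 124 against 4116 ± 188, log2 fold change -0.21, adjusted p = 0.000623). Gpi1, the isomerase that follows, was not called (95% interval of the log2 difference -0.078 to 0.095), but was lower with GC-corrected offsets (log2 fold change -0.11, edgeR adjusted p = 0.00852). Phosphofructokinase, the committed step, is encoded by 3 genes. The muscle-type Pfkm was higher (1068 ± 22.9 against 663 ± 24.8, log2 fold change 0.70, adjusted p = 2.55e-09), the liver-type Pfkl was lower (7759 ± 379 against 9146 ± 274, log2 fold change -0.22, adjusted p = 0.000264), and the platelet-type Pfkp was called higher by a small margin with overlapping groups (1029.7 ± 53.0 against 946 ± 36.6, log2 fold change 0.14, adjusted p = 0.0354). The Pfkp call was lost in 9 of 19 alternative settings, and it was lost when any 1 of 5 libraries was left out, which were Sca1+ replicates 1 and 2 and Sca1- replicates 1, 2 and 4 (lowest log2 fold change 0.098, adjusted p = 0.135 by edgeR, without Sca1+ replicate 1). Pfkp also shares 748 bases of exon with Pitrm1 on the opposite strand.

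Pfkfb4 (ENSMUSG00000025648; chromosome 9, 108991778 to 109032228, plus strand) makes and removes fructose 2,6-bisphosphate, the activator of phosphofructokinase, and had 221, 213, 254 and 216 against 96.5, 148, 124 and 121 normalized counts. No Sca1- library reached the Sca1+ range. The means were 226 ± 19.1 against 122 ± 21.0 (log2 fold change 0.90, standard error 0.11, edgeR adjusted p = 1.78e-06). Its more abundant relative Pfkfb3 was not called (806 ± 55.4 against 807 ± 40.4, 95% interval of the log2 difference -0.12 to 0.14). Aldoc (ENSMUSG00000017390; chromosome 11, 78322968 to 78327781, plus strand), the brain-type aldolase, had 58.5, 47.3, 67.8 and 53.4 against 23.9, 38.0, 33.4 and 37.7. These low counts were separate between the groups but varied within them. Aldoc means were 56.8 ± 8.67 against 33.2 ± 6.58 (log2 fold change 0.79, standard error 0.18, edgeR adjusted p = 0.000848). Aldoa, the main aldolase of these cells, had 23135 ± 617 against 24569.6 ± 1354 and was not called (95% interval of the log2 difference -0.17 to 0.018), although with GC-corrected offsets it was lower by edgeR (log2 fold change -0.32, adjusted p = 7.32e-09).

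Between triose phosphate and pyruvate, 5 genes were lower and Gapdh and Eno2 were higher. The levels and differences of Gapdh, Pgk1, Pgam1, Eno1 and Pkm are uncertain because of shared sequence, as the next paragraph describes. Tpi1 (log2 fold change -0.36, adjusted p = 7.35e-07), Pgk1 (log2 fold change -0.53, adjusted p = 1.61e-07), Pgam1 (log2 fold change -0.48, adjusted p = 1.38e-07) and Eno1 (log2 fold change -0.59, adjusted p = 0.00174), which act in this order apart from the Gapdh step, were all lower. Pkm, the pyruvate kinase and the most abundant of the 39 genes, was lower by less (54234 ± 546 against 60393 ± 2966, log2 fold change -0.14, adjusted p = 0.00616). Gapdh (ENSMUSG00000057666; chromosome 6, 125161715 to 125166467, minus strand), which oxidizes glyceraldehyde 3-phosphate, went the other way, with 426, 352, 369 and 383 in Sca1+ and 274, 317, 299 and 261 in Sca1- libraries. The groups did not overlap. Its means were 383 ± 31.6 against 288 ± 25.1 (log2 fold change 0.42, standard error 0.079, edgeR adjusted p = 0.000178). Eno2 (ENSMUSG00000004267; chromosome 6, 124760053 to 124769673, minus strand), the neuronal enolase, had 96.0, 124, 132 and 123 against 47.8, 60.6, 54.5 and 62.8. Each Sca1+ library was above all Sca1- libraries, Sca1+ replicate 1 by the least. Eno2 means were 119 ± 15.6 against 56.4 ± 6.74, a 2.12-fold difference (log2 fold change 1.09, standard error 0.13, edgeR adjusted p = 1.79e-06).

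Several of these levels came from genes that share sequence with others, which was measured after the data were seen. The measure was the percentage of 50-base windows of a gene's longest coding transcript that occur in another annotated gene. It was 82.5% for Gapdh, 72.2% for Eno1, 68% for Pgk1, 62.4% for Bnip3, 41.5% for Pgam1, 36.6% for Higd1a, 34.4% for Pkm, 27% for Ldhb and 25.3% for Gpi1. Gapdh shared windows with 222 genes, and its count per kilobase of exon in Sca1+ cells was 92.6, where Pkm had 10845 and Aldoa 7948. Most Eno1 windows (70.5%) lay in Eno1b, which had 7984 ± 557 against 9781 ± 507 normalized counts and was lower as well (log2 fold change -0.28, adjusted p = 0.000161, edgeR), whereas Eno1 itself had 43.3 ± 2.77 against 65.7 ± 8.97. The levels and differences of these 9 genes are uncertain to that extent, since how reads matching several genes were counted was not given in the sources used here. Without them, 12 of the 29 other tested genes were higher and 10 lower. Exon overlap with a counted gene on the opposite strand was at most 157 bases for Hk1, Pfkm, Aldoa, Tpi1 and Gapdh.

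**Figure D3:**
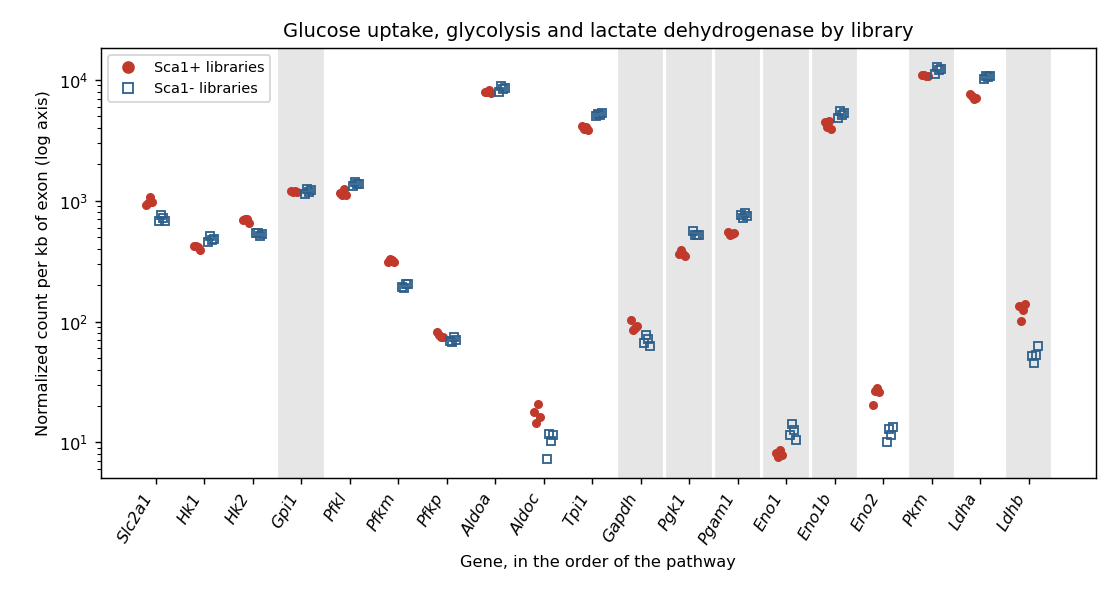
Normalized counts per kilobase of exon (log axis) for glucose uptake, glycolysis and lactate dehydrogenase, left to right in pathway order. Red circles are the 4 Sca1+ and open blue squares the 4 Sca1- libraries, and grey bands mark genes with over 25% of 50-base windows shared with another gene, and Eno1b. Mean levels in Sca1+ cells run from 8.05 (Eno1) to 10845 (Pkm), and the separated pairs lie in both directions. The enolase Eno3 is not drawn.

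At the end of the pathway the lactate dehydrogenase genes moved apart. Ldha (ENSMUSG00000063229; chromosome 7, 46841475 to 46855627, plus strand), whose subunit favors making lactate from pyruvate, had 25278, 24446, 22846 and 23514 normalized counts in Sca1+ and 33780.5, 35561, 35049.9 and 35603 in Sca1- libraries. The groups were separated by a wide gap. Its means of 24021 ± 1064 against 34999 ± 850.1 put Sca1+ cells at 69.3% of the Sca1- level (log2 fold change -0.53, standard error 0.042, edgeR adjusted p = 9.45e-09). Ldhb (ENSMUSG00000030246; chromosome 6, 142490249 to 142507957, minus strand), whose subunit favors the reverse reaction, had 211, 159.8, 196 and 219 against 82.1, 71.9, 82.4 and 99.3. All Sca1+ libraries were higher, Sca1+ replicate 2 by the least. With means of 197 ± 26.2 against 83.9 ± 11.4, the 2.38-fold difference was the highest of the 39 genes (log2 fold change 1.25, standard error 0.12, edgeR adjusted p = 1.10e-07). Even so, per kilobase of exon Ldhb stood at 125 in Sca1+ cells, where Ldha stood at 7257.

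The pyruvate dehydrogenase kinases, which switch off entry of pyruvate into the citric acid cycle, also divided. Pdk2 (ENSMUSG00000038967; chromosome 11, 95026258 to 95041354, minus strand) had 64.0, 81.8, 82.8 and 69.1 against 30.6, 33.9, 44.5 and 36.5 normalized counts. There was no overlap, on counts of at most 83 per library. Pdk2 means were 74.4 ± 9.35 against 36.4 ± 5.96, a 2.07-fold difference (log2 fold change 1.05, standard error 0.16, edgeR adjusted p = 1.60e-05). Pdk1, the best known HIF target of the family, was higher (887 ± 40.3 against 694 ± 20.7, log2 fold change 0.37, adjusted p = 1.29e-05), and Pdk3, the most abundant per kilobase, was lower (718 ± 40.6 against 1066 ± 34.2, log2 fold change -0.56, adjusted p = 1.21e-07).

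**Figure D4:**
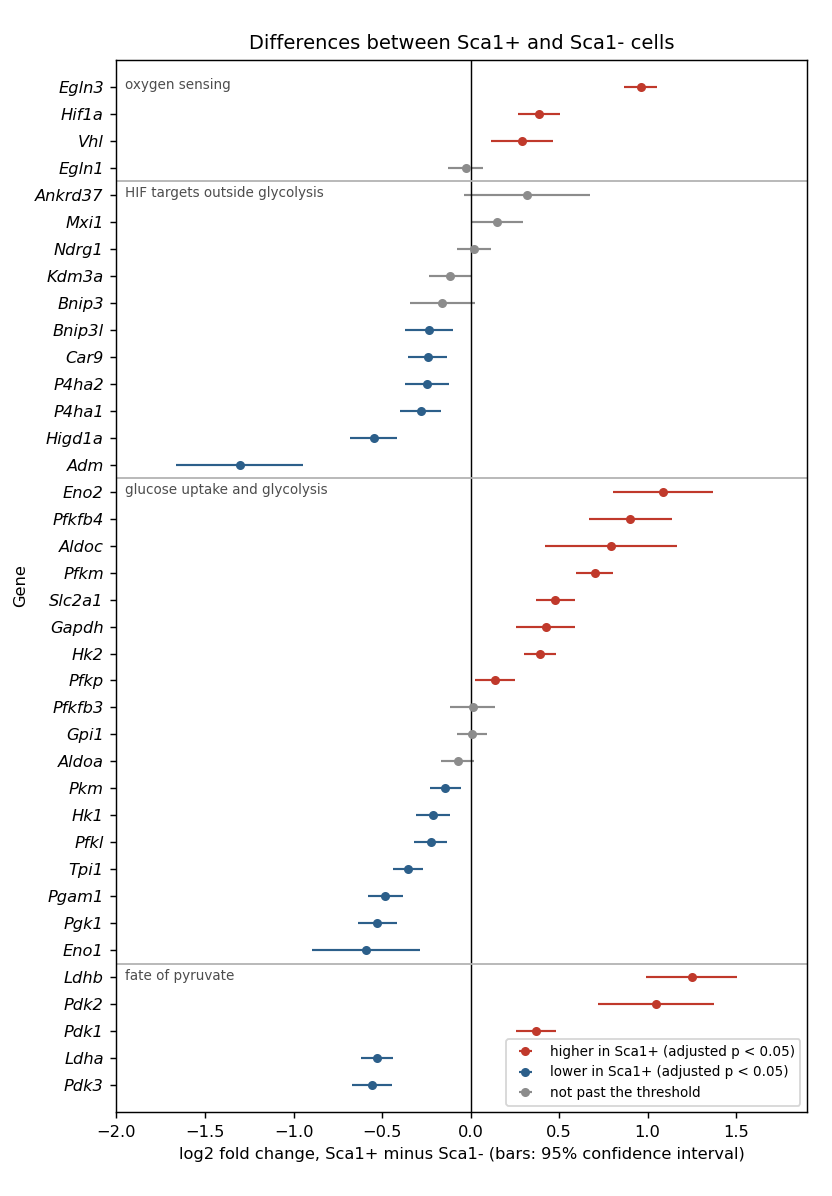
Log2 fold change (Sca1+ minus Sca1-, horizontal axis) of the 38 tested genes with 95% confidence intervals, by role. Red genes were called higher and blue genes lower at an adjusted p under 0.05 in edgeR, and grey genes did not pass. Values run from -1.30 (Adm) to 1.25 (Ldhb). The role of HIF targets outside glycolysis, which does not include Egln3, holds blue and grey points only.

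Because paralogs moved in opposite directions, the makeup of several enzyme families was computed as each gene's share of the summed counts per kilobase of exon. Of 15 shares, 11 did not overlap between the groups, each with a two-sided exact permutation p of 0.0286, the smallest that 4 against 4 libraries allow, and a Benjamini-Hochberg adjusted p of 0.039 over the 15. The shares rest on the same counts as the gene tests and, within a family, sum to 100%, so they are a second view and not separate evidence. Hk2 made up 62.6% ± 0.405 of hexokinase (Hk1 and Hk2) in Sca1+ cells and 52.4% ± 1.19 in Sca1- cells. Which of the 2 is larger depends on the length used. Hk1 has 8532 bases of exon but a longest transcript of 4278, where Hk2 has 5969 and 5513. Without division by length, Hk1 had the higher mean normalized count in Sca1- cells (4116 against 3168). Pfkm made up 20.5% ± 0.754 of phosphofructokinase in Sca1+ cells and 12.1% ± 0.536 in Sca1- cells. The Pfkl share was 74.5% ± 0.955 in Sca1+ cells and 83.6% ± 0.718 in Sca1- cells. For Pfkp the share was 4.94% ± 0.331 in Sca1+ cells and 4.31% ± 0.199 in Sca1- cells, with overlap (exact permutation p = 0.0571, adjusted p = 0.0714). Phosphofructokinase thus remained mainly Pfkl in both groups, with a larger Pfkm part in Sca1+ cells.

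Ldhb was 1.70% ± 0.241 of lactate dehydrogenase in Sca1+ cells and 0.503% ± 0.0658 in Sca1- cells. Aldoc was 0.218% ± 0.0285 of aldolase in Sca1+ cells and 0.120% ± 0.0187 in Sca1- cells, and both families stayed almost wholly Ldha and Aldoa. Of the 3 kinases, Pdk1 took 27.3% ± 0.916 in Sca1+ cells and 17.3% ± 0.666 in Sca1- cells. Pdk2 took 5.64% ± 0.749 in Sca1+ cells and 2.22% ± 0.307 in Sca1- cells. The Pdk3 share was 67.1% ± 1.61 in Sca1+ cells and 80.5% ± 0.707 in Sca1- cells. Per kilobase of exon the family thus stayed mainly Pdk3, with larger Pdk1 and Pdk2 parts in Sca1+ cells. Without division by length, Pdk1 had a higher mean normalized count than Pdk3 in Sca1+ cells (887 against 718). In Sca1- cells Pdk3 had the higher one (1066 against 694 for Pdk1). Pfkfb3 was 69.6% ± 3.26 of Pfkfb3 and Pfkfb4 together in Sca1+ cells and 81.0% ± 2.75 in Sca1- cells. Their relative Pfkfb2, which was not called, was outside this pair, at 84.5 counts per kilobase in Sca1+ and 85.6 in Sca1- cells. Of Egln1 and Egln3, Egln3 was 63.5% ± 0.647 in Sca1+ cells and 46.7% ± 0.127 in Sca1- cells, so that Egln3 was the larger of the pair in Sca1+ and Egln1 in Sca1- cells. The further prolyl hydroxylase Egln2, at 394 counts per kilobase in Sca1+ and 281 in Sca1- cells, was outside this pair. These are therefore not shares of all the prolyl hydroxylases. Eno2 was 75.6% ± 2.86 of Eno1 and Eno2 in Sca1+ cells and 49.6% ± 4.45 in Sca1- cells, but 0.591% and 0.229% once Eno1b was added, and its groups were apart in both versions. Neither version held the further enolase Eno3, at 2827 counts per kilobase in Sca1+ and 3382 in Sca1- cells. Eno3 was lower in Sca1+ cells (log2 fold change -0.25, edgeR adjusted p = 0.000342). Both versions therefore overstate the part of Eno2 in all enolase. The shares of P4ha2 (exact permutation p = 0.543), Bnip3 (p = 0.4) and Epas1 (p = 0.429) within their pairs overlapped between the groups.

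**Figure D5:**
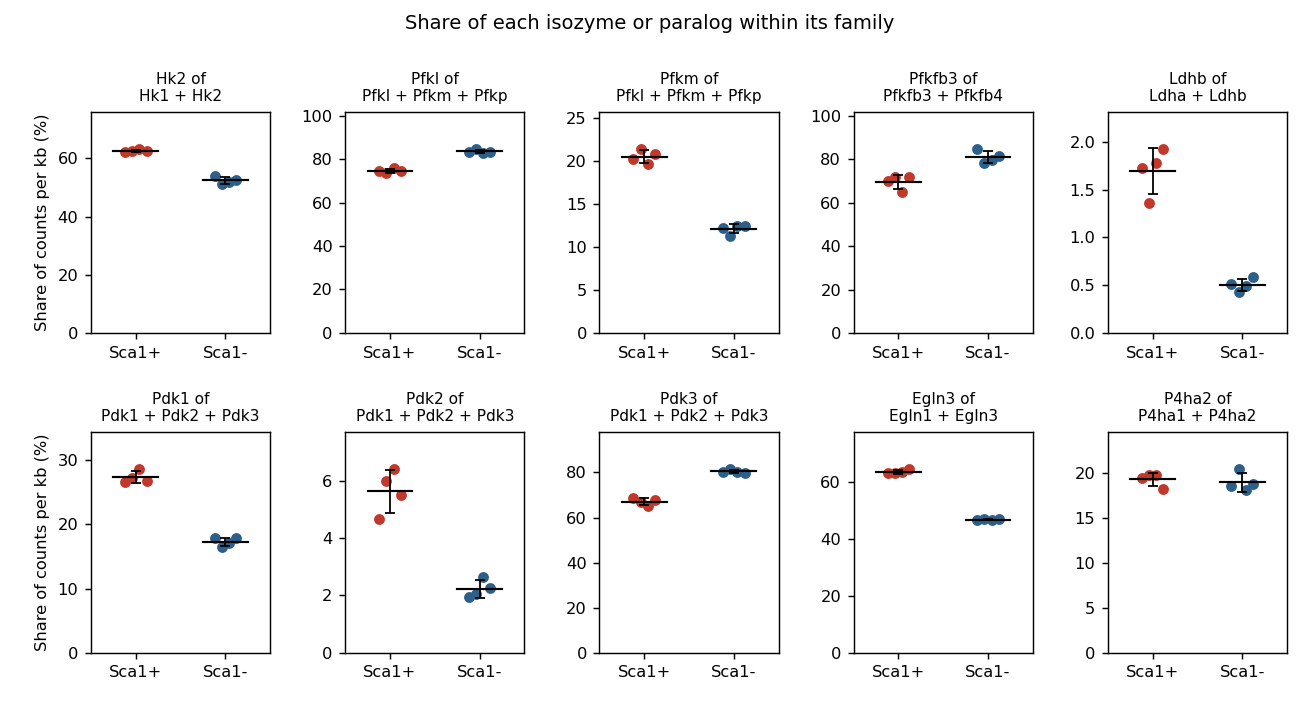
Share of 1 gene in the summed counts per kilobase of its family (percent, each axis from 0) for 10 of the 15 shares. Dots are libraries, lines the mean and error bars the SD of 4 libraries. Sca1+ (red) and Sca1- (blue) dots are apart in each panel except P4ha2, where they overlap.

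Summed over the 23 glycolysis genes, 0.968% to 0.997% of all counts fell on them in Sca1+ libraries and 1.04% to 1.12% in Sca1- libraries. Pkm, Ldha, Aldoa and Tpi1 made up 76.2% to 79.9% of that sum, so most of it, as counted, is these 4 genes. Both the sum and this part depend on how reads matching several genes were counted, since Gapdh, Eno1 and Pgk1 share most of their windows. Eno1b, with 7984 ± 557 normalized counts in Sca1+ and 9781 ± 507 in Sca1- cells, is outside the sum. The 16 other hypoxia genes summed to 0.107% to 0.111% against 0.0927% to 0.103%, where the abundant Hif1a and Egln3 were higher in Sca1+ cells. The calls were also counted by abundance. Of 10 genes with a mean normalized count under 300, 6 were higher and 2 lower, beside 37.8% and 16.6% of all genes of that abundance. Of 19 genes between 300 and 3000, 6 were higher and 8 lower, beside 28.6% and 35.7%, and of 9 genes over 3000, 2 were higher and 5 lower, beside 24% and 46.5%. The low-abundance isozymes Ldhb, Eno2, Aldoc, Pdk2 and Pfkfb4 were thus in a range where more of all genes were higher than lower in Sca1+ cells.

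Further genes of the same pathways came from lists written from general knowledge, with earlier results of these data known. Of 76 such genes, 7 were not among the genes counted, 54 were tested, 9 (16.7%) were higher and 29 (53.7%) lower, beside 31.3% and 30.2% of all genes tested. HIF pathway factors gave 3 higher (30%) and 6 lower (60%) of 10 tested. The largest of the 3 higher differences was that of the prolyl hydroxylase Egln2 (1104 ± 144 against 788 ± 82.1 normalized counts, log2 fold change 0.498, edgeR adjusted p = 5.02e-05). Cited2, which competes with HIF for its coactivators (1813 ± 242 against 2895 ± 295 normalized counts, log2 fold change -0.66, adjusted p = 1.25e-06), and Cul2, the scaffold of the Vhl ligase (568 ± 25.3 against 813 ± 67.5, log2 fold change -0.51, adjusted p = 2.56e-06), were the lower genes past 0.5 on the log2 scale. Arnt, the partner of HIF alpha, was not called (log2 fold change -0.12, adjusted p = 0.0602).

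Of 22 other HIF targets tested, 2 (9.09%) were higher and 11 (50%) lower, beside 31.3% and 30.2% of all genes. The 2 higher genes were Vegfa, the angiogenic growth factor (1780.2 ± 215 against 956 ± 40.1 normalized counts, log2 fold change 0.91, adjusted p = 6.11e-09), and Ddit4, an inhibitor of mTOR signaling (1705 ± 265 against 965 ± 133, log2 fold change 0.83, adjusted p = 8.69e-07). Among those lower, Loxl4, a lysyl oxidase that crosslinks collagen, had 1977 ± 149 against 4279.6 ± 114 (log2 fold change -1.10, adjusted p = 9.10e-12). Plod2 (-0.63) hydroxylates collagen, Tfrc (-0.88) imports transferrin-bound iron, Angptl4 (-0.80) inhibits lipoprotein lipase, and Bhlhe40 (-0.71) is a transcriptional repressor, with log2 fold changes in parentheses.

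None of 9 further glycolysis and lactate transport genes tested was called higher (edgeR, with 0 at an unadjusted p under 0.05 and 0 by DESeq2 or limma-voom), and 6 (66.7%) were lower, all by less than 0.5 on the log2 scale, beside 31.3% higher and 30.2% lower of all genes. They include the lactate and pyruvate transporter Slc16a1 (log2 fold change -0.22, adjusted p = 0.000228) and its chaperone Bsg (log2 fold change -0.45, adjusted p = 1.72e-07). Among genes of pyruvate entry into mitochondria, 2 of 10 (20%) were higher and 5 (50%) lower. The higher ones were Pcx, pyruvate carboxylase, which makes oxaloacetate from pyruvate (281 ± 13.2 against 113 ± 6.10 normalized counts, log2 fold change 1.32, adjusted p = 4.08e-10), and Pdp2, a phosphatase that reverses the action of the pyruvate dehydrogenase kinases (156 to 181 against 74.2 to 100.2 over 4 libraries each, log2 fold change 0.97, adjusted p = 5.40e-07). The lower ones were 5 subunits of the pyruvate dehydrogenase complex, at log2 fold changes of -0.29 (Dld) to -0.11 (Dlat). Of 3 gluconeogenesis genes tested, 2 (66.7%) were higher, including Fbp2, a fructose bisphosphatase that opposes phosphofructokinase (66.8 ± 12.5 against 42.6 ± 9.80, log2 fold change 0.67, adjusted p = 0.00363), and 1 (33.3%) was lower.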

How the data were processed

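RNA sequencing data of 4 4T1-Sca1+ and 4 4T1-Sca1- libraries were analysed. Per the submitters' processing notes the authors used cutadapt 1.16 and STAR 2.5.3a with the mouse build GRCm38 (mm10), and they deposited raw counts per Ensembl gene. The counting tool, annotation and use of strand were not given in the sources used here. A second deposited table of normalized values was not used. Symbols, positions and exon lengths came from GENCODE M21 on GRCm38, which held 16200 of the 16341 genes counted. Promoter windows came from RefSeq.

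The deposited counts entered edgeR 4.0.16, run in R 4.3.3 (TMM, filterByExpr, glmQLFit and glmQLFTest, two-sided, no covariate). Of the genes, 11717 were tested and 4624 were not. P-values were Benjamini-Hochberg adjusted over all of these, with 0.05 as the limit for a call. A standard error was the absolute log2 fold change divided by the square root of F. Normalized counts are counts divided by DESeq2 1.42.0 size factors, as mean ± SD of 4 libraries, and counts per kilobase divide them by exonic length. Total counts per library ran from 13561804 to 16968215. The floor was 3 counts per group, and since PCR reads are not independent molecules it covers counting error only. Isozyme shares were compared by exact permutation over the 70 arrangements (SciPy 1.17.1).

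The genes, their roles and the further lists were chosen with earlier results of these data known, so no test over a list is given. Values in every library were printed for the 3 called genes with the largest absolute log2 fold change in each role (2 where a role had under 6 genes) and for Hif1a, Car9, Slc2a1, Gapdh and Ldha. Further pathway genes were named when called and past 0.5 on the log2 scale in either direction, except 1 gene that is not reported here. Arnt, Slc16a1, Bsg, Dld, Dlat, Eno1b, Eno3, Egln2 and Pfkfb2 fall outside that rule and were chosen after their values were seen.

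Same-numbered replicates did not deviate together (correlations 0.0957, -0.15, -0.0339 and -0.00107), so they were taken to share only a number. Alternatives were DESeq2 size factors, upper-quartile scaling, library totals alone, GC-corrected offsets, the filter on low counts removed or set to 10 counts in each library, DESeq2's own test, limma-voom 3.58.1, a replicate block with and without GC correction, a limit of 0.01 on the adjusted p, a minimum log2 difference of 1, the fits lacking 1 library, and other lengths for the shares. Shared 50-base windows, the sum with Eno1b and the split by abundance were added after seeing the data.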

Additional observations from a re-analysis of the deposited data

Results flagged for a closer look

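In 110 tests for a library lying apart from the other 3 of its group by Dixon's ratio, 8 values stood out, where chance gives about 1 in 20, or 5.5. Bnip3l had 962 normalized counts in Sca1- replicate 1, where the others had 782 to 810. P4ha1 had 1627 in Sca1- replicate 2, where the others had 1808 to 1833. Higd1a had 320.3 in Sca1+ replicate 4 (359 to 362), and Pgk1 had 1268 in Sca1- replicate 1 (1161 to 1173). Hk2 had 3061 in Sca1- replicate 3 (3196 to 3211), and Pfkfb3, which was not called, had 747 in the same library (820 to 833). The Eno2 share of Eno1 and Eno2 was 56.2% in Sca1- replicate 4 (46.8% to 47.9%), and the Egln3 share of Egln1 and Egln3 was 64.4% in Sca1+ replicate 4 (63.1% to 63.3%). The calls of Bnip3l, P4ha1, Higd1a, Pgk1 and Hk2 remained when the library concerned was left out.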

How the results depend on the processing

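Of the 29 genes called, 28 kept their direction and call in each of 19 alternatives (a fold minimum aside). Pfkp was the exception, with a log2 fold change of 0.12 without a low-count filter and with DESeq2, 0.14 with the replicate block (adjusted p = 0.0576 by edgeR) and 0.098 to 0.13 in the 5 settings that left out a library and lost the call. It was also not called at an adjusted p under 0.01. Same-numbered libraries did not pair. The replicate block left 3605 of all genes higher and 3452 lower, and it changed no other call among the 38 genes. A minimum log2 difference of 1 in size left 3 higher and 1 lower gene. The median of the glycolysis genes moved to -0.053 with GC-corrected offsets and to -0.054 with the replicate block added. The Pfkp share differed by 1.66 percentage points without division by length and by 0.716 with the longest transcript (adjusted p = 0.0357, exact permutation), in place of 0.626. The size of a share depends on the length used, as described for Hk2 and Pdk3. Reversed signs concerned genes without a call. Egln1 was at 0.0015 with upper-quartile scaling and 0.015 with library totals. Ndrg1 was at -0.050 with GC-corrected offsets, with and without the block, and -0.0034 to 0.037 when 1 library was left out. Gpi1 was at -0.11 with GC-corrected offsets and -0.10 with the block added (adjusted p = 0.00852 and 0.0174 by edgeR), -0.0045 without a filter, -0.0040 with DESeq2 and -0.025 to 0.024 when 1 library was left out. Pfkfb3 was at -0.053 and -0.054 with GC-corrected offsets, -0.0025 without a filter, -0.0022 with DESeq2 and -0.025 to 0.053 when 1 library was left out. Calls were gained by Egln1 (-0.25), Aldoa (-0.32) and Gpi1 (-0.11) with GC-corrected offsets, by Aldoa (-0.12) without Sca1- replicate 1, by Bnip3 (-0.23) and Kdm3a (-0.16) without Sca1- replicate 2, and by Mxi1 (0.16 to 0.19) in 6 settings, 1 of them without Sca1+ replicate 2. The cause of these shifts was not tested. Genes with under 100 normalized counts, such as Adm, Aldoc and Pdk2, have the widest intervals at this depth.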
